A study of Homo sapiens with 12 samples.

Results

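Disulfiram with copper (DSF) and niclosamide (NSM), given together, raised 12 of 18 genes of cholesterol synthesis in the leukaemia line SHI-1 (28.3% of all tested genes rose). With the libraries scaled to equal sums, 6 rose and 3 fell, where 11.4% of all tested genes rose and 56.1% fell. DSF alone lowered 8 of the 18 (5.95% of all tested genes fell). The genes described here were chosen by name. They comprised 18 enzymes of sterol synthesis, 5 sterol regulators or carriers, 8 enzymes of fatty acid synthesis and 4 genes of the liver X receptor (LXR) response or of cholesterol export. Of the 35 listed genes, 34 were among the 14866 rows used and all 34 passed the filter on low values, which left 13502 genes for testing. ABCA1 was not analysed here. The rule of choice used names and no measured value, but earlier results of these data were known when it was made.

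SHI-1 is an established human acute myeloid leukaemia line that carries the fusion MLL-AF6. Poly(A) RNA was sequenced from 4 groups of 3 libraries, each after 16 h of exposure. The control group received DMSO, the DSF group 0.3 µM disulfiram with 1 µM copper, the NSM group 5 µM niclosamide, and the DSF+NSM group both drugs at those concentrations with the copper. Copper in the DMSO and NSM groups is not given in the sources used here, so disulfiram and copper cannot be told apart. The study describes the 3 libraries of a group as independent experiments with this single line, at 1 dose and 1 time. Since this is bulk RNA, fewer cells of a kind and less RNA per cell cannot be told apart. All 9 markers of myeloid and monocytic cells that were checked had a median of at least 10 normalized counts in every group. Their summed level ran from 66100 to 75310 with DMSO, 45010 to 51270 with DSF, 30140 to 36580 with NSM and 32890 to 33850 with both drugs. MPO made up most of this sum, with 54161.5 to 62640.4 in DMSO, so the sum mainly followed MPO. With DSF, MPO and LYZ lay below all DMSO libraries, CEBPA overlapped them and the other markers lay above. With NSM, MPO, LYZ, CEBPA, CD33 and CSF1R lay below, and SPI1, ITGAM, CD14 and PTPRC lay above. The summed level of the B cell, T cell, epithelial or fibroblast markers was at most 639.6, and the 3 erythroid markers had no row used here. The part of these shifts in the results was not tested.

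Cells make cholesterol from acetyl-CoA through the mevalonate pathway, squalene and lanosterol. The transcription factors SREBF2 and SREBF1 control this pathway together with fatty acid synthesis. They are made as membrane proteins that SCAP escorts out of the endoplasmic reticulum when sterols are low and that INSIG1 helps to retain when sterols are ample. The released fragments bind sterol regulatory elements, commonly beside boxes for the factor NF-Y. Oxysterols act in the other direction through LXR, which turns on exporters such as ABCG1 and the ubiquitin ligase MYLIP, which removes lipoprotein receptors. Growing leukaemia cells draw cholesterol from their own synthesis and from serum lipoproteins.

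Of these genes, HMGCS1, MSMO1 and INSIG1 fell with DSF and rose with both drugs, and SCD fell with DSF. SREBF2 controls the pathway, and FDPS ended near the DMSO level under both drugs. For those reasons the promoter sequences of these 6 genes are shown. Each is the part of the 250 bases before the RefSeq start (GRCh38.p14) that lies upstream of the gene's outermost start in GENCODE 44, written 5′ to 3′ on the strand of the gene. Capitals mark CCAAT, the NF-Y box, and CACNCCAC, a core of the sterol regulatory element, on either strand (N is any base, and CCAAT on the other strand reads ATTGG). The 2 motifs share no base in these stretches.
HMGCS1, chr5:43313513-43313662, minus strand: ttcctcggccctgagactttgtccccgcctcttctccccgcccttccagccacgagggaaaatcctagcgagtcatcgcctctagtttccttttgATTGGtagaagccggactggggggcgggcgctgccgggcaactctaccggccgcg
FDPS, chr1:155308616-155308747, plus strand: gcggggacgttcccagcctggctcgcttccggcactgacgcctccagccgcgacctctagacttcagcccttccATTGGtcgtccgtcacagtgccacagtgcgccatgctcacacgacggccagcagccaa
MSMO1, chr4:165327419-165327666, plus strand: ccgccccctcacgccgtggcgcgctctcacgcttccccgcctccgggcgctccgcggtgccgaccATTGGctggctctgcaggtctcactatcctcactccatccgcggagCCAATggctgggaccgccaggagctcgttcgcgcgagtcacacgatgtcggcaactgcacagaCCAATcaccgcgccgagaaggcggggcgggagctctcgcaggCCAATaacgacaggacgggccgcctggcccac
INSIG1, chr7:155297628-155297775, plus strand: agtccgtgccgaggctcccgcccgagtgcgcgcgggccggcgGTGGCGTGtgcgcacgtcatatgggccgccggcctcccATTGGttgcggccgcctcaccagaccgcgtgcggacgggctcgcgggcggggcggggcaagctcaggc
SREBF2, chr22:41832855-41833104, plus strand: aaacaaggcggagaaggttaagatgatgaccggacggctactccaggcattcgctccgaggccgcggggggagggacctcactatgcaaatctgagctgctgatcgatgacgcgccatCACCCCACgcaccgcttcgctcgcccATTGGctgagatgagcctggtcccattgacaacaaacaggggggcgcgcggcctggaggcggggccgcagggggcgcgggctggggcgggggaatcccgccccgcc
SCD, chr10:100346983-100347232, plus strand: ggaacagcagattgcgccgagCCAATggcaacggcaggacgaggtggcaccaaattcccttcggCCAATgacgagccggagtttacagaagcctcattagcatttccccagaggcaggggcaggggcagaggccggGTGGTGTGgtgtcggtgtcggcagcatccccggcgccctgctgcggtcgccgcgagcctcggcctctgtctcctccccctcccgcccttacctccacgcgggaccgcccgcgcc

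The RefSeq table held an entry for 29 of the 34 genes and none for ACAT2, FDFT1, SQLE, FASN and ABCG1, and motifs were counted in the full 250 bases on both strands. CCAAT was found in 21 of the 29 (72.4%) and in 13 of 15 sterol synthesis genes (86.7%), against 41.7% of 9545 tested genes and 37% of all 27305 genes in the table. MVK and NSDHL held the most copies, 5 each, and MSMO1 held 4. CACNCCAC was found in 6 of 29 (20.7%), against 6.31% of tested genes and 5.89% of all genes. The longer TCACNCCAC, which contains CACNCCAC, was found in 1 of 29, SREBF2 (3.45%), against 1.15% of tested genes and 1.09% of all genes. The GC box GGGCGG, bound by SP1, was found in 28 of 29 (96.6%), against 73.4% and 46.2%. The E-box CACGTG was found in 3 of 29 (10.3%), against 11.3% and 7.73%. A match describes the letters in this window and is not evidence of binding.

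The values are normalized counts as scaled by the authors, and how the reads were counted is not settled here. The depth was estimated at 10.2 to 19.0 M reads per library. The sums of normalized counts differed by group, from 14.0 to 14.4 M with DMSO, 14.9 to 15.3 M with DSF, 16.5 to 17.5 M with NSM and 22.7 to 25.6 M with both drugs. The share of 6 ribosomal RNA genes was 1.88% to 3.58%, 4.65% to 5.99%, 4.70% to 5.53% and 9.63% to 11.7% in the same order, and their part in the results was not tested beyond the scalings given here. One library stood apart. NSM replicate 3 correlated with the other NSM libraries at a Spearman coefficient of 0.939 to 0.950 across genes, whereas the other pairs within a group reached 0.980 to 0.996.

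The departure of NSM replicate 3 followed GC content. It was over 1.5 times higher than the mean of NSM replicates 1 and 2 in 7 of the 34 genes, with a median transcript GC content of 37.93%. It was over 1.5 times lower in 14 genes, with a median of 58.98%. The other 13 had a median of 46.86%. The Spearman coefficient between GC content and this departure was -0.930 over the 34 genes and -0.764 over the 11712 tested genes with a GC value, as a description across genes of 1 library. Counts are therefore given with and without this library.

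**Figure D1:**
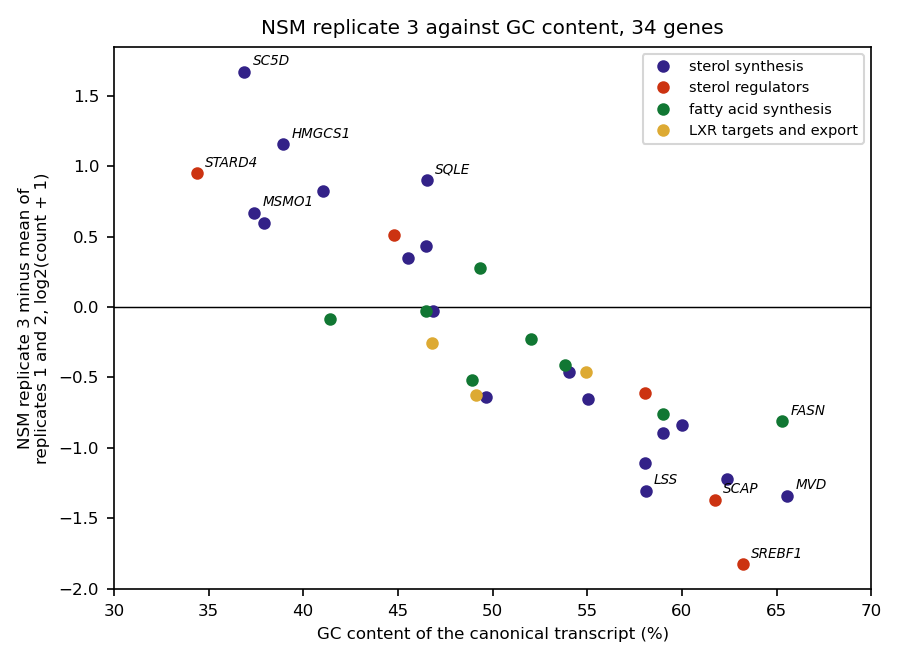
GC content of the canonical transcript (%, horizontal) against the log2 difference of NSM replicate 3 from the mean of NSM replicates 1 and 2 (vertical), 1 point for each of the 34 genes, coloured by role. AT-rich transcripts such as SC5D and HMGCS1 lie above 0 and GC-rich ones such as SREBF1, SCAP and MVD lie below it, with a Spearman coefficient of -0.930.

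A gene was called changed when limma gave a Benjamini-Hochberg adjusted p under 0.05, adjusted over all 13502 genes. Fold changes are on the log2 scale of normalized count + 1, and errors of the values are the SD of 3 libraries. In the DSF group 15 of the 34 genes were called, 2 higher and 13 lower, where 17.8% of all tested genes were called, 11.9% higher and 5.95% lower. The median of the 34 was -0.52 and that of all tested genes 0.047. In the NSM group 19 were called, 14 higher and 5 lower, with 49.1% called over all tested genes, 25.4% higher and 23.7% lower, so this share lies near the background. In the DSF+NSM group 22 were called, 19 higher and 3 lower, with 52.8% called over all tested genes, 28.3% higher and 24.5% lower. The comparisons with DMSO share the DMSO libraries. Among the DSF calls, those of STARD4 and ACLY were each lost in 10 of 24 alternatives, and those of HMGCS1, LSS and DHCR7 in 6.

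Against the single drugs the split was sharper. DSF+NSM exceeded DSF in 26 genes and was lower in 3, with 43.1% of all tested genes called, 21.7% higher and 21.4% lower. It exceeded NSM in 20 genes and was lower in 0 by limma, also at an unadjusted p under 0.05, with 38.6% of all tested genes called, 20.3% higher and 18.3% lower. The interaction, the excess of the DSF+NSM change over both single-drug changes added together, was above 0 in 20 called genes and below 0 in 1, with 26.1% called over all tested genes, 12.1% above and 14.0% below. Without NSM replicate 3 the calls were 27 for DSF, 21 for NSM, 27 for DSF+NSM against DMSO, 31 against DSF, 24 against NSM (23 higher and 1 lower) and 28 for the interaction (25 above 0 and 3 below). The shares over all tested genes rose to 41.1%, 59.8%, 67.7%, 60.1%, 49.0% and 45.7%.

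The scaling of the libraries bears on direction. When every library was scaled to the same sum, the median of all tested genes moved to -0.74 with both drugs, -0.25 with NSM and -0.049 with DSF, against DMSO. The calls were then 10 higher and 11 lower for DSF+NSM and 8 higher and 9 lower for NSM, where 67.5% (11.4% higher and 56.1% lower) and 49.8% (16.4% and 33.4%) of all tested genes were called. For DSF+NSM against NSM they were 5 higher and 4 lower, where 54.7% (9.83% and 44.9%) of all tested genes were called. Relative to the median of all tested genes, the median of the 34 in DSF+NSM was 0.74 as deposited and 0.73 with equal sums. Scaling shifts all genes of a library nearly alike, so this agreement was fixed in advance and is no check of direction.

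**Figure D2:**
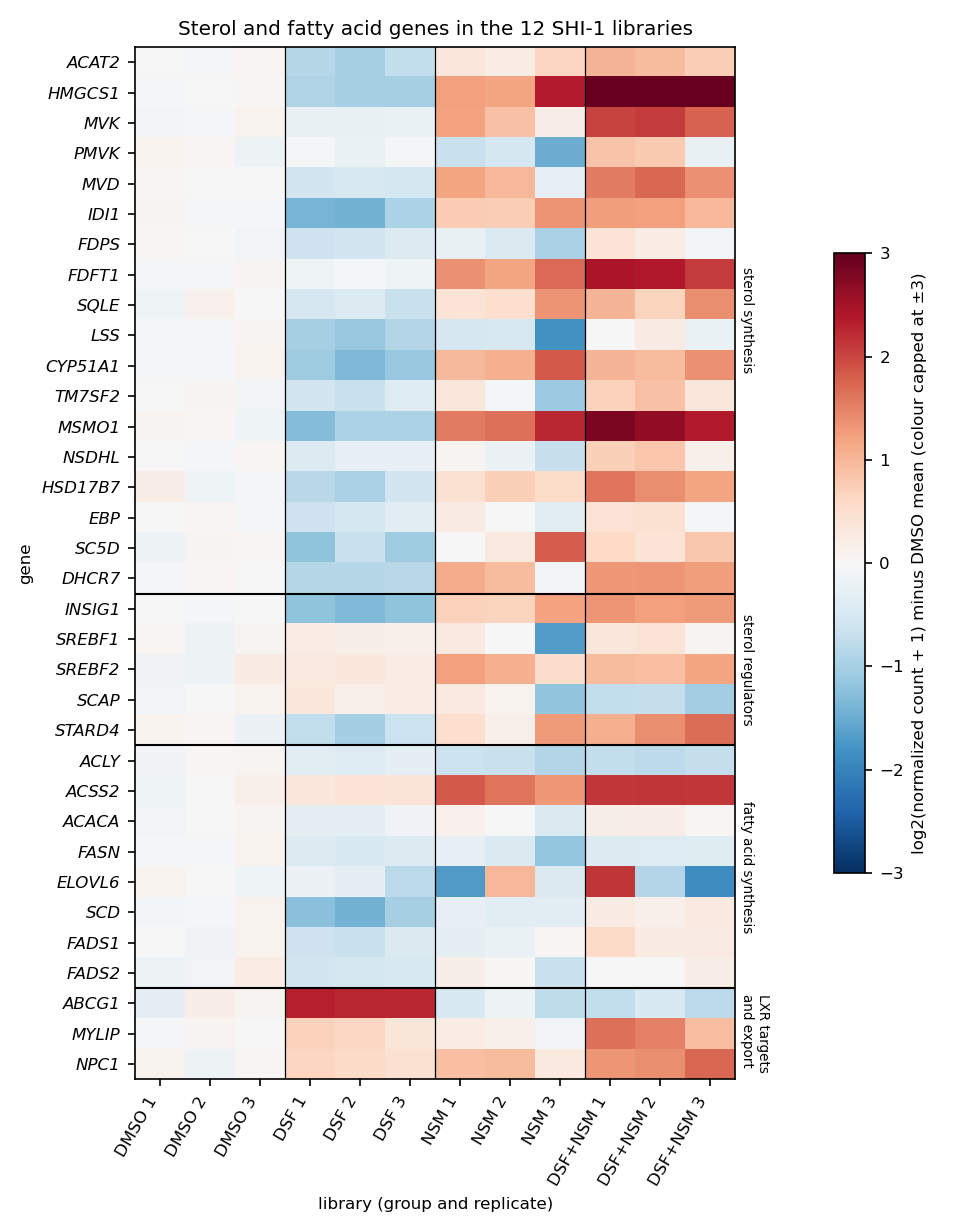
Heat map of the 34 genes (rows, enzymes in pathway order) in the 12 libraries (columns). Colour gives log2(normalized count + 1) minus the DMSO mean, capped at 3 either way. Most sterol synthesis rows are blue in the DSF libraries and red in the DSF+NSM libraries, and NSM replicate 3 differs from the other NSM libraries in many rows.

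Among the 18 enzymes of sterol synthesis, 8 fell with DSF and 0 rose by limma, where 5.95% of all tested genes fell and 11.9% rose. All 18 lay below 0 (12 at an unadjusted p under 0.05). With NSM 10 rose and 3 fell, where 25.4% of all tested genes rose and 23.7% fell. With both drugs 12 rose and 0 fell by limma, where 28.3% of all tested genes rose and 24.5% fell. All 18 lay above 0, with a median of 1.07 on the log2 scale. With equal sums the median was 0.28, where all tested genes had -0.74, and the calls were 6 higher and 3 lower. Under that scaling 11.4% of all tested genes rose and 56.1% fell. The calls of ACAT2, SQLE and CYP51A1 with both drugs were each lost in 2 of 24 alternatives, and those of IDI1 and DHCR7 in 1. That of NSDHL was lost in 8 and turned in 2. By group means of the values as scaled by the authors, the level was highest in DSF+NSM for 16 of the 18 and lowest in DSF for 17 of the 18. The larger sums of the DSF+NSM libraries bear on the first count. How many of all tested genes showed these orders was not counted. Without NSM replicate 3 the calls were 14 lower with DSF, 11 higher and 3 lower with NSM, and 14 higher with both drugs. The shares of all tested genes called in either direction were then 41.1%, 59.8% and 67.7%.

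The first steps build mevalonate. ACAT2, the cytosolic thiolase, had 1246, 1216 and 1301 normalized counts in DMSO, 693, 627 and 752 with DSF, 1595, 1472 and 1948 with NSM and 2555, 2412 and 2099 with both drugs. The 4 groups did not overlap. It fell with DSF by 0.86 on the log2 scale (adjusted p = 0.00116) and rose with both drugs by 0.90 (adjusted p = 0.000129). Exons of ACAT2 overlap those of TCP1 on the opposite strand over 17.2% of their length.

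HMGCS1, which makes HMG-CoA, changed most of the 34 genes with both drugs. It had 1315, 1391 and 1411 normalized counts in DMSO, 734, 686 and 686 with DSF, 3196, 3128 and 7037 with NSM and 21066, 18621 and 15615 with both drugs. No 2 groups overlapped, and NSM replicate 3 lay above the other NSM libraries. The DSF+NSM mean was 13.4-fold that of DMSO, a log2 change of 3.74 (95% confidence interval 3.20 to 4.275, adjusted p = 1.84e-07), and 4.14-fold that of NSM (2.15, adjusted p = 4.2e-05). DSF alone lowered it 1.96-fold (-0.97, adjusted p = 0.0197). Its change with both drugs was larger than the added single-drug changes by 3.11 (95% confidence interval 2.35 to 3.88). An unnamed gene on the opposite strand shares 37.7% of its exon bases, and whether counting used strand is not given in the sources used here.

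MVK and MVD, the mevalonate kinase and the decarboxylase that yields isopentenyl diphosphate, rose with both drugs. MVK had 202, 208 and 232 normalized counts in DMSO, 183, 183 and 185 with DSF, 494, 394 and 246 with NSM and 880.5, 913 and 734 with both drugs. All DSF+NSM libraries lay above every other library, a log2 change of 1.97 against DMSO (adjusted p = 1.13e-05). MVD had 560.0, 539 and 543 in DMSO, 369, 395 and 376 with DSF, 1243, 1098 and 461 with NSM and 1582, 1822 and 1421 with both drugs. NSM replicate 3 was below all DMSO libraries while the other NSM libraries were above them, and the NSM change of 0.646 (adjusted p = 0.0761) became 1.09 without it (adjusted p = 1.04e-06). PMVK, the kinase between them, had 488, 465 and 405 in DMSO, 441, 396 and 443 with DSF, 283, 313 and 159.8 with NSM and 812, 783 and 384 with both drugs. It fell with NSM by 0.90 (adjusted p = 0.0225) and did not pass the test with both drugs (0.47, 95% confidence interval -0.16 to 1.10, adjusted p = 0.196), where DSF+NSM replicate 3 lay below all DMSO libraries and the other 2 above them.

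The isoprenoid steps follow. IDI1, the isopentenyl diphosphate isomerase, had 597, 549 and 547 normalized counts in DMSO, 213, 212 and 292 with DSF, 949.6, 937 and 1428 with NSM and 1347, 1320.5 and 1122 with both drugs. It fell 2.36-fold with DSF (-1.25, adjusted p = 0.000836) and rose 2.24-fold with both drugs (1.16, adjusted p = 0.000226). Its DSF+NSM libraries overlapped the NSM libraries. FDPS, the farnesyl diphosphate synthase, had 3138, 3048 and 2864 in DMSO, 1970.0, 2011 and 2267 with DSF, 2572, 2234 and 1525 with NSM and 3986, 3499 and 2842 with both drugs. DSF+NSM overlapped DMSO, with a change of 0.18 (95% confidence interval -0.215 to 0.57, adjusted p = 0.433), while NSM alone lowered FDPS by 0.55 (adjusted p = 0.0243). All DSF libraries of FDPS lay below all DMSO libraries. That change of -0.54 did not pass the test (adjusted p = 0.0588) but did without NSM replicate 3 (adjusted p = 0.00146).

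Squalene is made and closed into lanosterol in the next steps. FDFT1, the squalene synthase, had 2485, 2513 and 2730.0 normalized counts in DMSO, 2336, 2501 and 2336 with DSF, 6672, 5831 and 8409.6 with NSM and 13975, 13687 and 11098 with both drugs. DSF overlapped DMSO (-0.11, adjusted p = 0.642), whereas NSM raised FDFT1 2.71-fold (1.42, adjusted p = 7.77e-06) and both drugs raised it 5.02-fold (2.32, adjusted p = 9.13e-08). SQLE, the squalene epoxidase, had a mean of 826 ± 71.9 in DMSO, 574 ± 55.2 with DSF, 1457 ± 566 with NSM and 1709 ± 427 with both drugs. It rose with both drugs by 1.02 (adjusted p = 0.00322) and its interaction of 0.79 did not pass the test (adjusted p = 0.104). The DSF value of SQLE was -0.53 (adjusted p = 0.148, and 0.00966 without NSM replicate 3). LSS, the lanosterol synthase, behaved otherwise, with 334, 334 and 361 in DMSO, 172, 154 and 185 with DSF, 239.5, 244 and 97.3 with NSM and 338, 408 and 297 with both drugs. Each drug alone lowered LSS, by 1.01 with DSF (adjusted p = 0.0322) and by 0.94 with NSM (adjusted p = 0.018), and the DSF+NSM libraries lay on both sides of the DMSO values (0.0067, 95% confidence interval -0.625 to 0.64, adjusted p = 0.987).

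Among the enzymes that turn lanosterol into cholesterol, MSMO1 moved furthest with both drugs. MSMO1, the C4-methyl sterol oxidase, had 692, 678 and 606 normalized counts in DMSO, 268, 338 and 342 with DSF, 1928, 2064 and 3176 with NSM and 4684, 4183 and 3428 with both drugs. The 4 groups did not overlap. MSMO1 fell with DSF by 1.065 (adjusted p = 0.00298), rose with NSM by 1.82 (adjusted p = 1.26e-05) and rose 6.22-fold with both drugs (2.625, adjusted p = 4.17e-07).

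CYP51A1, the lanosterol demethylase, had 2079, 2089 and 2306 normalized counts in DMSO, 1036, 847 and 981 with DSF, 4232, 4487 and 7720.1 with NSM and 4363, 4136 and 5578 with both drugs. It fell with DSF by 1.18 (adjusted p = 0.00233), rose with NSM by 1.29 and with both drugs by 1.11 (adjusted p = 0.000254 and 0.000626). DSF+NSM and NSM overlapped, with a difference of -0.18 (95% confidence interval -0.62 to 0.26, adjusted p = 0.505). An unnamed gene on the same strand shares 68.2% of its exon bases, so the value of CYP51A1 depends on how the counting shared those reads.

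HSD17B7 and DHCR7 both fell with DSF and rose with both drugs. HSD17B7, the ketosteroid reductase of this pathway, had means of 139 ± 16.7 in DMSO, 79.8 ± 11.6 with DSF, 207 ± 18.6 with NSM and 369 ± 54.7 with both drugs. It fell with DSF by 0.79 and rose by 0.58 with NSM and 1.40 with both drugs (adjusted p = 0.0106, 0.0176 and 3.61e-05). Near-identical copies of HSD17B7 exist in the genome, so its count is uncertain. DHCR7, which carries out the last reduction to cholesterol, had 1314, 1423 and 1388 in DMSO, 757, 764 and 774 with DSF, 2968, 2641 and 1296 with NSM and 3372, 3427 and 3271 with both drugs. It fell with DSF by 0.84 and rose with both drugs by 1.29 (adjusted p = 0.0267 and 0.000563), and NSM replicate 3 lay below every DMSO library while the other 2 NSM libraries lay above. The NSM change of DHCR7 was 0.66 (adjusted p = 0.0337), a call lost in 8 of 24 alternatives.

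TM7SF2, NSDHL and EBP follow. TM7SF2, a sterol C14-reductase, had means of 174 ± 10.2 in DMSO, 119.9 ± 11.4 with DSF, 156 ± 69.4 with NSM and 274 ± 50.2 with both drugs, and was not called against DMSO with any treatment. NSDHL, the C4-decarboxylating dehydrogenase, had means of 413 ± 17.4, 335 ± 20.7, 353 ± 90.8 and 625 ± 145 in the same order and rose with both drugs (0.57, adjusted p = 0.0383), a change of -0.21 with equal sums. EBP, the sterol isomerase, had means of 1733 ± 70.3, 1233 ± 131, 1714 ± 347 and 2124 ± 403. Its DSF+NSM change of 0.275 did not pass the test (95% confidence interval -0.10 to 0.65, adjusted p = 0.204), and an unnamed gene on the same strand shares 36.4% of its exon bases. All of TM7SF2, NSDHL and EBP were higher in DSF+NSM than in DSF, by 1.18, 0.87 and 0.77 (adjusted p = 0.00633, 0.00553 and 0.00359). Without NSM replicate 3, TM7SF2 passed the test against DMSO with DSF (-0.54, adjusted p = 0.0151) and with both drugs (0.64, adjusted p = 0.00255). EBP then passed with DSF (-0.50, adjusted p = 0.00668).

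SC5D, the sterol C5-desaturase, rests on 1 library in NSM. It had 203, 240.4 and 237 normalized counts in DMSO, 97.2, 141 and 107 with DSF, 225, 278 and 798 with NSM and 344, 303 and 395 with both drugs. NSM replicate 3 was above all other libraries. The DSF+NSM minus NSM difference was -0.093 with it (adjusted p = 0.861) and 0.46 without it (adjusted p = 0.045). The DSF libraries were below all DMSO libraries, a change of -0.99 that passed the test without NSM replicate 3 (adjusted p = 0.0789 with it and 0.000226 without).

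**Figure D3:**
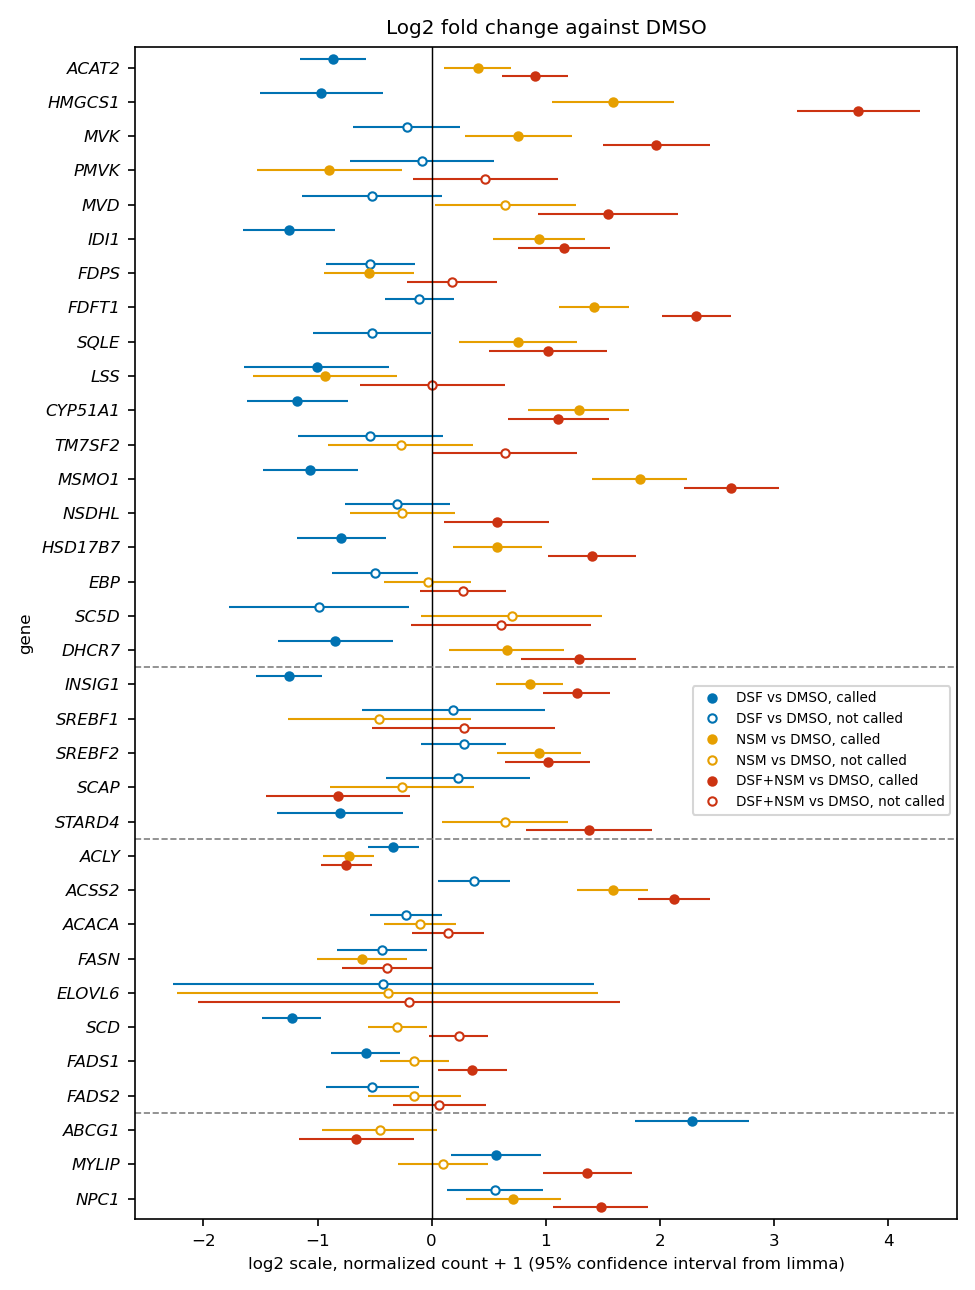
Log2 fold change against DMSO (horizontal, scale of normalized count + 1) of each of the 34 genes for DSF (blue), NSM (orange) and DSF+NSM (red), with 95% confidence intervals. Filled points passed an adjusted p of 0.05. Every sterol synthesis gene has its DSF point left of 0 and its DSF+NSM point right of 0, with HMGCS1 at 3.74.

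The regulators did not move as 1 group. With DSF 0 of the 5 rose and 2 fell by limma, with NSM 2 rose and 0 fell, and with both drugs 3 rose and 1 fell. Over all tested genes 11.9% rose and 5.95% fell with DSF, 25.4% and 23.7% with NSM, and 28.3% and 24.5% with both drugs, so the NSM count lies below the 49.1% called. The counts at an unadjusted p under 0.05 were 0 and 2 with DSF and 3 and 0 with NSM. With equal sums the calls for both drugs were 1 higher and 1 lower, where 11.4% of all tested genes rose and 56.1% fell. INSIG1, itself a target of the SREBPs, had 2992, 2881 and 2987 normalized counts in DMSO, 1275, 1176 and 1276 with DSF, 4787, 4724 and 6789 with NSM and 7370.1, 6878 and 7108 with both drugs. The groups did not overlap. INSIG1 fell 2.38-fold with DSF (-1.25, adjusted p = 7.08e-05), rose 1.84-fold with NSM (0.86, adjusted p = 0.00024) and 2.41-fold with both drugs (1.27, adjusted p = 8.57e-06). It exceeded NSM by 0.41 under both drugs (adjusted p = 0.0297), a difference of -0.10 with equal sums.

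The 2 SREBP genes differed in their calls. SREBF2, the factor mainly tied to sterol synthesis, had 2039, 1963 and 2580.4 normalized counts in DMSO, 2657, 2721 and 2556 with DSF, 5107, 4531 and 3154 with NSM and 4239, 4082 and 4929 with both drugs. NSM and DSF+NSM overlapped each other and lay above DMSO. SREBF2 rose by 0.94 with NSM and 1.015 with both drugs (adjusted p = 0.000714 and 0.000333), and its DSF value of 0.28 did not pass the test (adjusted p = 0.283). The SREBF2 call with both drugs was lost in 2 of 24 alternatives. SREBF1, the factor mainly tied to fatty acid synthesis, had 1273, 1099 and 1283 in DMSO, 1422, 1382 and 1358 with DSF, 1479, 1232 and 379 with NSM and 1539, 1619.7 and 1296 with both drugs. It passed the test in none of the 6 comparisons by limma, with DSF+NSM at 0.28 (95% confidence interval -0.52 to 1.08), and NSM replicate 3 lay far below the other 11 libraries. Without that library the DSF+NSM change was 0.28 (adjusted p = 0.0254). The difference between the SREBF1 and SREBF2 changes was not tested.

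SCAP, the escort of the SREBPs, was lower under both drugs, with 814, 851 and 923 normalized counts in DMSO, 1072, 960.5 and 999 with DSF, 1047, 926 and 381 with NSM and 519, 528 and 419 with both drugs. All DSF+NSM libraries lay below the DMSO and DSF libraries, and NSM replicate 3 lay below all other libraries. SCAP fell by 0.82 against DMSO (adjusted p = 0.0303) and by 1.05 against DSF (adjusted p = 0.0111). Against NSM the difference was -0.56 (adjusted p = 0.145) and, without NSM replicate 3, -1.02 (adjusted p = 6.84e-06).

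STARD4, a carrier that moves cholesterol between membranes, followed the enzymes. It had 383, 371 and 317 normalized counts in DMSO, 212, 176 and 226 with DSF, 502, 399 and 866 with NSM and 745, 932 and 1143 with both drugs. It fell with DSF by 0.80 (adjusted p = 0.0467) and rose 2.63-fold with both drugs (1.38, adjusted p = 0.00065). The NSM value of 0.65 did not pass the test (adjusted p = 0.0515), and the NSM and DSF+NSM libraries overlapped.

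**Figure D4:**
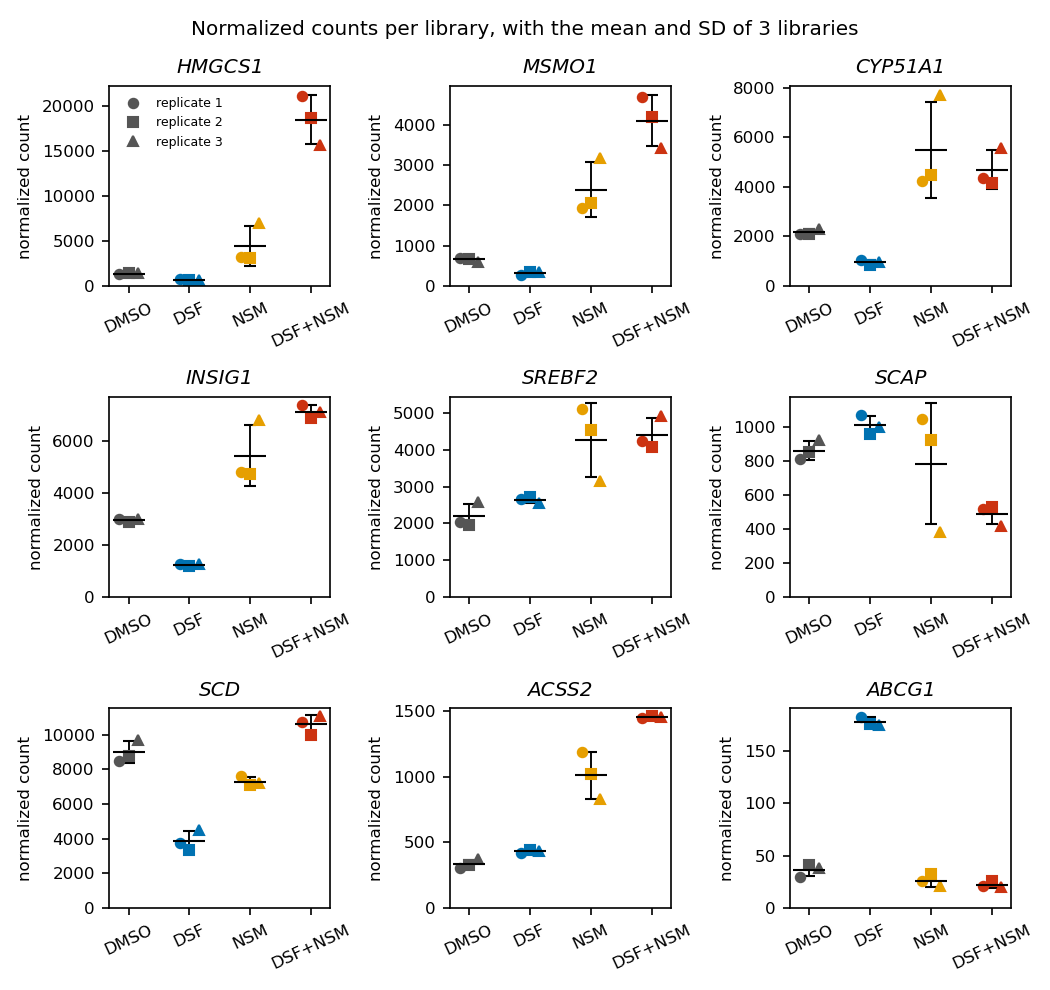
Normalized counts (vertical, linear from 0) of 9 of the genes in each library, by group, with the mean (long bar) and SD (error bar) of 3 libraries. Marker shapes give the replicate number. HMGCS1 under DSF+NSM lies between 15615 and 21066, above all other libraries, while ABCG1 is high only in the DSF libraries, at 175 to 183.

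Fatty acid synthesis moved less than sterol synthesis in DSF+NSM, as a description of both lists. Of its 8 enzymes 0 rose and 3 fell with DSF by limma (1 and 5 at an unadjusted p under 0.05), 1 rose and 2 fell with NSM, and 2 rose and 1 fell with both drugs, with a median of 0.10 in DSF+NSM beside 1.07 for sterol synthesis and 0.030 for all tested genes. The 3 of 8 called with NSM and the 3 of 8 with both drugs lie below the 49.1% and 52.8% called over all tested genes, and with DSF 17.8% were called. With equal sums the calls for both drugs were 1 higher and 6 lower, where 11.4% of all tested genes rose and 56.1% fell. ACLY, which makes acetyl-CoA from citrate, had 4713, 5133 and 5309 normalized counts in DMSO, 3976, 3885 and 4128 with DSF, 3252, 3168 and 2742 with NSM and 3002, 2937 and 3078 with both drugs. It fell with each treatment, by 0.34 with DSF, 0.73 with NSM and 0.75 with both drugs (adjusted p = 0.0424, 0.000118 and 7.39e-05). NSM and DSF+NSM overlapped.

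ACSS2, which makes acetyl-CoA from acetate, went the other way. It had 303, 328 and 370.3 normalized counts in DMSO, 416, 444 and 433 with DSF, 1186, 1021 and 828 with NSM and 1449, 1464 and 1453 with both drugs. No groups overlapped, and the DSF value of 0.37 did not pass the test (adjusted p = 0.0964; 0.00781 without NSM replicate 3). ACSS2 rose 3.03-fold with NSM (1.585, adjusted p = 4.22e-06) and 4.36-fold with both drugs (2.125, adjusted p = 2.28e-07). Its interaction was 0.17 (95% confidence interval -0.27 to 0.61, adjusted p = 0.578).

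ACACA, FASN and ELOVL6 build and lengthen the chain, and none of them was called with both drugs by limma. ACACA, the acetyl-CoA carboxylase, had means of 1557 ± 85.6 in DMSO, 1329 ± 91.3 with DSF, 1473 ± 296 with NSM and 1717 ± 81.3 with both drugs and passed the test against DMSO with no treatment by limma. With equal sums its DSF+NSM change was -0.64 (adjusted p = 0.00193). The DSF change of ACACA, -0.23, passed the test without NSM replicate 3 (adjusted p = 0.044). FASN, the fatty acid synthase, had 4516, 4558 and 5092 in DMSO, 3526, 3407 and 3523 with DSF, 3985, 3485 and 2124 with NSM and 3536, 3603 and 3641 with both drugs. All treated libraries lay below all DMSO libraries. FASN fell with NSM by 0.61 (adjusted p = 0.0151), while the values for DSF and DSF+NSM were -0.44 and -0.39 (adjusted p = 0.119 and 0.0896, and 0.000512 and 0.00044 without NSM replicate 3). ELOVL6, an elongase, was low and erratic, with 39.1, 36.5 and 33.0 in DMSO, 31.6, 29.7 and 20.2 with DSF, 10.4, 72.7 and 26.3 with NSM and 163, 19.3 and 9.13 with both drugs, and passed the test in 0 of 6 comparisons by limma, also at an unadjusted p.

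SCD, the desaturase that makes oleic acid, followed the sterol enzymes under DSF. It had 8499, 8785 and 9706 normalized counts in DMSO, 3772, 3354 and 4474 with DSF, 7618, 7073 and 7185 with NSM and 10715, 9979 and 11073 with both drugs. The DSF libraries lay below all others. SCD fell 2.33-fold with DSF (-1.23, adjusted p = 3.08e-05), and its values were -0.30 with NSM (adjusted p = 0.0515) and 0.24 with both drugs (adjusted p = 0.113). Without NSM replicate 3 these 2 values were -0.29 and 0.24 and passed the test (adjusted p = 0.0364 and 0.0496). DSF+NSM exceeded DSF by 1.46 (adjusted p = 2.63e-06), and the interaction was 1.76 (95% confidence interval 1.40 to 2.13).

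FADS1 and FADS2, the desaturases of polyunsaturated fatty acids, are neighbours on chromosome 11 and share 490 exon bases on opposite strands. FADS1 had means of 1099 ± 82.6 in DMSO, 737 ± 66.2 with DSF, 990.0 ± 118 with NSM and 1409 ± 185 with both drugs. It fell with DSF by 0.58 (adjusted p = 0.0148) and rose with both drugs by 0.35 (adjusted p = 0.0485), a change of -0.43 with equal sums. That rise passed the test no longer in 13 of 24 alternatives and turned in 2. FADS2 had means of 3322 ± 487, 2301 ± 76.0, 3059.8 ± 854 and 3460.5 ± 276 in the same order and was not called against DMSO. It was higher in DSF+NSM than in DSF by 0.59 (adjusted p = 0.0238), a difference of -0.10 with equal sums. The DSF change of FADS2 against DMSO, -0.52, passed the test without NSM replicate 3 (adjusted p = 0.000812).

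Of the LXR and export genes, ABCG1 moved against the synthesis genes. ABCG1, which exports cholesterol, had 29.4, 40.9 and 38.0 normalized counts in DMSO, 183, 176 and 175 with DSF, 25.8, 32.3 and 20.7 with NSM and 21.2, 25.8 and 20.2 with both drugs. The DSF libraries stood apart from all others. ABCG1 rose 4.92-fold with DSF (2.28, 95% confidence interval 1.78 to 2.78, adjusted p = 4.51e-05), and DSF+NSM was 7.94-fold below DSF (-2.94, adjusted p = 2.23e-06). With both drugs it fell by 0.66 against DMSO (adjusted p = 0.0296). Its interaction of -2.49 (95% confidence interval -3.20 to -1.78) was the 1 called below 0, joined by SCAP and SREBF2 when NSM replicate 3 was left out.

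MYLIP and NPC1 did not show that pattern. MYLIP had 496, 547 and 517 normalized counts in DMSO, 838, 806 and 674 with DSF, 606, 578 and 494 with NSM and 1639, 1477 and 991 with both drugs. It rose with DSF by 0.565 and with both drugs by 1.36 (adjusted p = 0.0483 and 5.1e-05), and NSM overlapped DMSO. The DSF call of MYLIP was lost in 12 of 24 alternatives. NPC1, which moves cholesterol out of lysosomes, had 189.8, 159 and 183 in DMSO, 276, 262 and 243 with DSF, 330.2, 342 and 217 with NSM and 441, 469 and 586 with both drugs. Every treated library lay above every DMSO library. NPC1 rose by 0.72 with NSM and 1.48 with both drugs (adjusted p = 0.00819 and 4.24e-05), with DSF at 0.554 (adjusted p = 0.0643) and an interaction of 0.21 (95% confidence interval -0.38 to 0.80, adjusted p = 0.603). The DSF change of NPC1 passed the test without NSM replicate 3 (adjusted p = 0.0033).

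The interaction tests whether the combination departed from the sum of both drugs on the log2 scale. Among the sterol enzymes 16 of 18 were called, all above 0, where 26.1% of all tested genes were called. Their median was 1.43 where all tested genes had 0.006. With equal sums 10 were called, all above 0, where 35.5% of all tested genes were called, with a median of 1.01 where all tested genes had -0.40. SQLE and SC5D were not called (0.79 and 0.895, adjusted p = 0.104 and 0.224), and both passed without NSM replicate 3 (1.09 and 1.45). INSIG1, STARD4, SCD and FADS1 made up the remaining calls above 0. SREBF2, ACSS2 and NPC1, which rose with NSM and with both drugs, had intervals that included 0. Without NSM replicate 3, SREBF2 and SCAP were called below 0 (-0.41 and -1.25, adjusted p = 0.0491 and 1.92e-05).

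**Figure D5:**
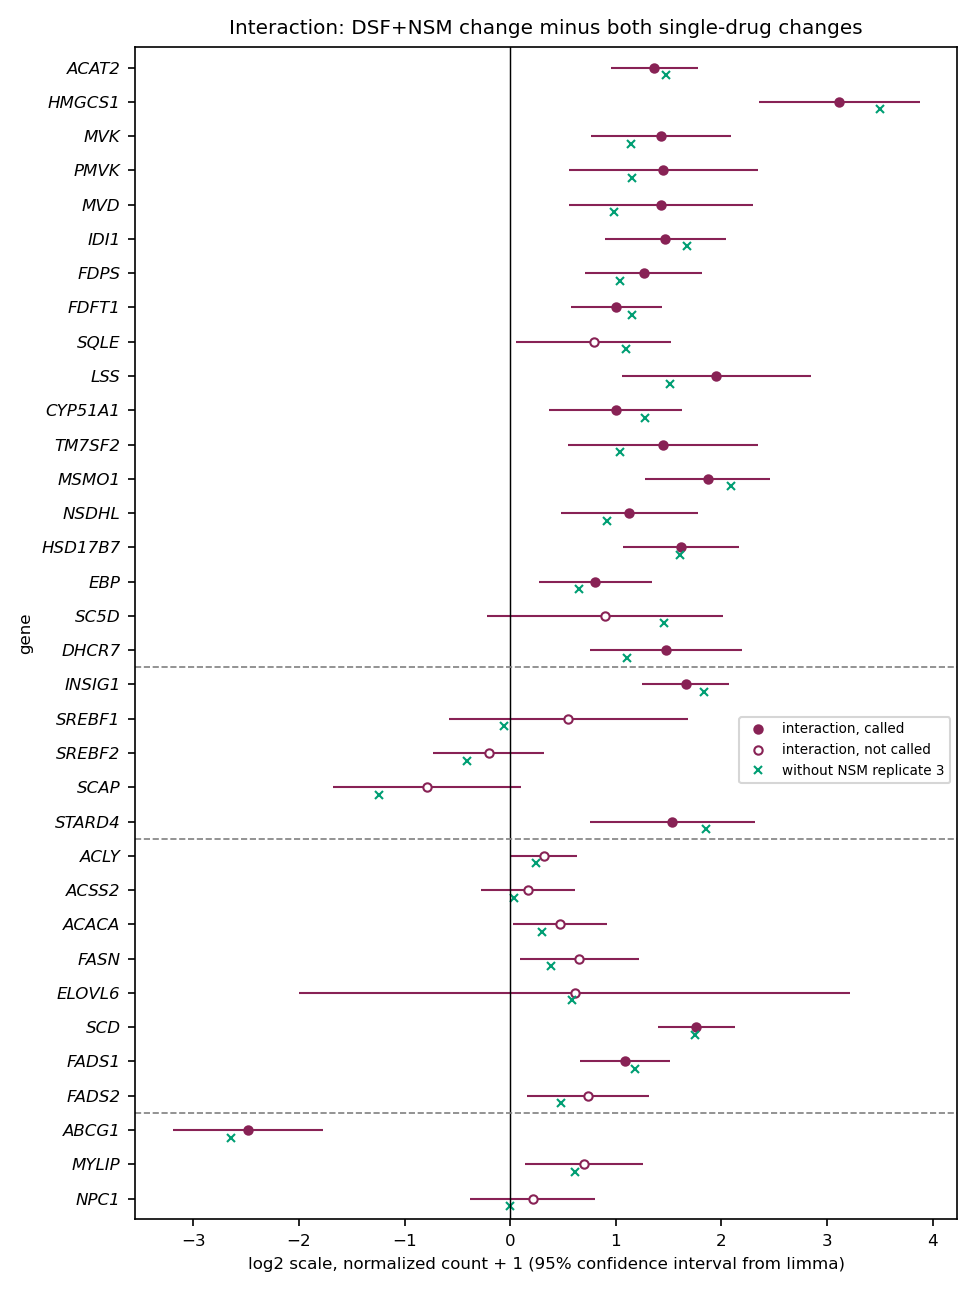
Interaction of both drugs for each of the 34 genes (horizontal, log2 scale of normalized count + 1) with 95% confidence intervals. Filled points passed an adjusted p of 0.05, and crosses give the value without NSM replicate 3. The sterol synthesis genes lie right of 0 and ABCG1 lies left of it.

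Changes of these genes also moved with GC content. The Spearman coefficient of GC content with the log2 change over the 34 genes was 0.486 with DSF, -0.527 with NSM and -0.359 with both drugs, against 0.486, -0.062 and 0.151 over 11712 tested genes. For the interaction it was -0.287 and -0.045. With the GC trend of each library removed, the calls were 3 higher and 20 lower for DSF, 17 and 6 for NSM, 22 and 4 for DSF+NSM and 27 and 2 for the interaction, where 25.6%, 62.2%, 64.7% and 43.3% of those 11712 genes were called.

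Related lipid genes were counted by list, and 28.3% of all tested genes rose and 24.5% fell with both drugs. Of 16 genes of sterol regulation and handling, 2 rose and 5 fell with both drugs, with a median of -0.32. NPC2, the lysosomal partner of NPC1, had 303, 285 and 284 normalized counts in DMSO and 1074, 1046 and 1003 in DSF+NSM, a rise of 1.84 (adjusted p = 1.01e-06). LIPA, the lysosomal acid lipase, had 772, 816 and 797 in DMSO and 331, 334 and 397 in DSF+NSM, and fell by 1.17 (adjusted p = 0.000462). In the same list MBTPS1, the protease that first cuts the SREBPs, fell by 1.07 (adjusted p = 1.06e-05). This gene was singled out after its value was seen.

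Of 15 genes of fatty acid handling, 7 rose and 2 fell with both drugs, with a median of 0.16. ME1, which supplies NADPH, had 212, 178 and 204 normalized counts in DMSO, 376, 391 and 342 with DSF, 313, 342 and 591 with NSM and 1059, 957 and 1485 with both drugs, and rose by 2.53 (adjusted p = 2.69e-06). LPCAT3, which remodels phospholipids, had 994, 1074 and 1159.7 in DMSO and 501, 509.6 and 488 in DSF+NSM, and fell by 1.10 (adjusted p = 5.03e-05). Of 12 genes of fatty acid oxidation, 4 rose and 2 fell, with a median of 0.13. CPT2, the inner carnitine palmitoyltransferase, had 725, 673 and 747 in DMSO and 194, 153 and 261 in DSF+NSM, and fell by 1.85 (adjusted p = 1.24e-05). ACADVL, the very long chain acyl-CoA dehydrogenase, rose by 0.66 with both drugs (adjusted p = 0.0115) and by 0.82 with DSF (adjusted p = 0.0122). With equal sums the calls for both drugs were 1 higher and 11 lower for sterol handling, 4 and 6 for fatty acid handling, and 0 and 9 for oxidation, beside 11.4% and 56.1% of all tested genes.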

How the data were processed

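RNA from 12 SHI-1 libraries in 4 groups was measured once each. The submitters' processing notes name bcl2fastq 2.19, Trimmomatic, Bowtie2, Picard, featureCounts, DESeq2 and hg38, whereas the study's methods describe STAR with Salmon and DESeq2, and which produced these values is not settled here. Per the file headers, each deposited table holds the signal of a library as normalized counts, scaled by the authors over 24 libraries, of which 12 were used. Between 20% and 32.3% of values were whole multiples (tolerance 0.01) of the library's smallest step, so reads were not recovered, depth is an estimate and count models were not used.

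Values were transformed as log2(value + 1) for genes that reached 10 in 3 or more libraries. limma 3.58.1 (R 4.3.3) was fitted to 4 group means with a mean-variance trend and robust moderation, and 6 two-sided contrasts were adjusted by Benjamini-Hochberg at a threshold of 0.05. The code was checked on simulated data. P-values measure the spread between libraries. Positions and GC content came from GENCODE 44, promoters from RefSeq. Tables were handled in Python 3.11.15 with pandas 2.3.3 and numpy 2.4.6. Groups came from the labels. The alternatives were other scalings, filters and pseudocounts, library weights, a replicate block, fits of the compared groups alone and leaving out each library, and, chosen after seeing the data, equal sums without rRNA genes and a GC correction. The genes and lists were chosen with earlier results of these data known. All 34 genes are named; of the related lists, the largest called rise and fall with both drugs.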

Additional observations from a re-analysis of the deposited data

Results flagged for a closer look

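The DSF+NSM change differed from the sum of the single-drug changes in 21 of the 34 genes by the interaction contrast in limma (26.1% of all tested genes passed). On the log2 scale of normalized count + 1, the interaction among the enzymes up to squalene was 1.36 for ACAT2, 3.11 for HMGCS1, 1.425 for MVK, 1.45 for PMVK, 1.425 for MVD, 1.47 for IDI1, 1.26 for FDPS and 1.01 for FDFT1. Among the later sterol enzymes it was 1.95 for LSS, 1.00 for CYP51A1, 1.45 for TM7SF2, 1.87 for MSMO1, 1.13 for NSDHL, 1.62 for HSD17B7, 0.81 for EBP and 1.48 for DHCR7. It was 1.66 for INSIG1, 1.535 for STARD4, 1.76 for SCD and 1.085 for FADS1, and it was below 0 for ABCG1, at -2.49. The largest adjusted p among the 21 was 0.0295, for EBP.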

How the results depend on the processing

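The number of the 34 genes called moved with several choices. For DSF against DMSO it was 15 as reported, 23 with the GC trend removed, 31 with library weights and 30 in a fit of only the groups compared, and 7 to 27 when 1 library was left out. The share called over all tested genes moved with it, from 17.8% to 25.6%, 60.5% and 54% in the same order, and to between 6.75% and 13.1% without 1 DMSO or DSF library. The count was 7 without DMSO replicate 1 or DSF replicate 2, 8 without DMSO replicate 3 or DSF replicate 1, 9 without DMSO replicate 2 or DSF replicate 3, and 27 without NSM replicate 3. Leaving out NSM replicate 3 left the DSF log2 values unchanged, since the fit shares only the spread across groups. MVD, for instance, stayed at -0.52 while its adjusted p by limma went from 0.223 to 0.000816. The estimate of the library weights did not reach its convergence tolerance and gave NSM replicate 2 a weight of 32.8 and NSM replicate 3 one of 0.0233. For NSM the count was 19, 12 with only the groups compared, and 14 to 21 when 1 library was left out. For DSF+NSM against NSM it was 20, 9 with equal sums, 9 with equal sums without rRNA genes, 8 with only the groups compared and 13 without DSF+NSM replicate 1, within 13 to 24 over single libraries. Over single libraries the counts ran from 18 to 27 for DSF+NSM against DMSO, 28 to 31 against DSF and 17 to 28 for the interaction. Median of ratios, TMM, both filters and both pseudocounts moved no count by over 1.5 times.

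Directions turned with equal sums, with all tested genes shifted by -0.74 for DSF+NSM against DMSO, -0.67 against DSF and -0.48 against NSM. For DSF+NSM against DMSO the log2 values became -0.61 for FDPS, -0.77 for LSS, -0.21 for NSDHL, -0.51 for EBP, -0.64 for ACACA, -0.55 for SCD, -0.43 for FADS1 and -0.72 for FADS2. Without rRNA genes they were -0.48 for FDPS, -0.087 for NSDHL, -0.38 for EBP, -0.52 for ACACA, -0.42 for SCD, -0.30 for FADS1 and -0.59 for FADS2. Against DSF they were -0.64 for FASN and -0.10 for FADS2 (-0.55 and -0.010 without rRNA genes). Against NSM they were -0.015 for ACAT2, -0.10 for INSIG1 (-0.014 without rRNA genes) and -0.0066 for FADS1. SC5D against NSM ran from -0.45 to 0.46 over single libraries left out, the latter without NSM replicate 3. The cause of the differences between fits was not tested.

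Whether same-numbered libraries came from the same experiment is not given in the sources used here. Of 18 same-numbered pairs across groups, 2 had deviations that correlated over 0.1 (range -0.0644 to 0.278). This count does not decide whether the libraries were paired. With the replicate block the counts were 15, 21, 21, 29, 20 and 22 for DSF, NSM, DSF+NSM against DMSO, against DSF, against NSM and the interaction.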
